A study of Homo sapiens with 15 samples.

Results

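RNA was measured in MelJuSo, a human melanoma cell line, to compare the complete p65 activation system with a line that has no activation domain. The p65 line carries dCas12a (a Cas12a that binds DNA at its guide's target but no longer cuts it) with VP64 and the 5xALFA tag fused to it, p65 on a nanobody, and a cassette with 3 guides against CD4. Its control carries tagged dCas12a without VP64, the nanobody without p65, and no guides. Another line, with dCas12a-VP64 and nanobody-p65 but no guides, gives the starting point from which a return to the control level is judged, and the matching VP64 line with guides is set beside it in places. Each line has 3 libraries (replicates A, B and C), so the comparison rests on 6 of the 15 libraries of the series. The labels give neither clones nor separate cultures, so p-values measure the spread between these libraries, which may be technical. Both lines compared express dCas12a and a nanobody. They differ in VP64, in p65 and in the guide cassette together, and these cannot be told apart in the direct comparison. The p65 lines with and without guides are separate lines, so before guides or at the start means the line without guides, not an earlier time. No line carries a cassette without CD4 guides. A shift between the p65 lines therefore cannot tell the guides from the cassette or from the making of the line.

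VP64 is a chain of minimal activation peptides from a herpesvirus protein, and p65 is the activating part of RELA, the subunit through which NF-κB switches on inflammatory and antiviral genes. Both domains recruit coactivators such as the Mediator complex and histone acetyltransferases to the DNA where dCas12a sits. Melanoma cells are known for high basal chemokine output, for ERK-driven growth and for switching between a pigmented and a dedifferentiated state, so genes of these programmes were followed here together with stress, lipid, lysosomal and cell-cycle genes.

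The libraries of the p65 line with guides held 16850958 to 20291503 expected counts, and those of the control between 18567789 and 23072512 in the control. Mitochondrial transcripts took 2.03 to 2.33% of counts with guides and 1.47 to 1.81% in the control. Replicate C of the p65 line with guides stood apart. Of the 5832 genes that shifted between p65 without and with guides, it was the library nearest to the no-guide level in 3774 (64.7%), against 17.9% for replicate A and 17.4% for replicate B. Counts without it are given where they move. Of 28 melanocyte markers listed, 24 passed the filter on low counts and the others did not. Of those tested, PMEL and SOX10 were present in all 6 libraries. In the control they were at 13.2, 12.3 and 10.8 CPM and at 290.5, 298 and 288 CPM (CPM is counts per 1000000 after library scaling). T cell markers other than IL7R had at most 26 counts in any library, and CD3D, CD3G, CD2, CD5 and TRBC1 had none. Of the myeloid markers, C1QA and C1QB were at 0 in every library, but CD68 reached 101 TPM, TYROBP 68 TPM, CSF1R 14.6 TPM and SPI1 10.9 TPM.

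CD4, the targeted gene, encodes a T cell co-receptor that melanoma cells do not normally make (ENSG00000010610.9, chromosome 12, 6786858 to 6820808, hg38). In replicates A, B and C it reached 2131, 2126 and 1930 CPM with guides, against 4.14, 4.25 and 1.22 CPM in the control and 10.03, 11.1 and 10.8 CPM with p65 but no guides. The guide line was far above both others in every library, and the control was also below the no-guide p65 line. The mean rose from 3.202 ± 1.72 to 2063 ± 115 CPM (SD, n = 3; log2 fold change 9.37, SE 0.259, adjusted p = 1.83e-11). Over the TPM values, the exact permutation p (2-sided) was 0.1, as low as 3 libraries against 3 can give. RELA, whose coding sequence supplies the p65 domain, was 110.0, 108 and 107 CPM with guides and 103, 109 and 102 CPM in the control (log2 fold change 0.05, 95% interval -0.04 to 0.13, adjusted p = 0.341).

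The p65 line with guides differed from the control over much of the transcriptome. Of 14961 genes tested, 3834 were higher (25.6% of those tested) and 4111 lower (27.5%) at an adjusted p below 0.05, which is what called means here. A change of at least 2-fold was seen in 579 genes that rose (3.87%) and 470 that fell (3.14%). The median log2 fold change of all genes tested was -0.02. Before guides, 3699 genes were higher in the p65 line than in the control (24.7%) and 3751 lower (25.1%). Between the p65 lines, 2809 genes were higher with guides than without (18.8%) and 3023 lower (20.2%).

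Most genes that differed between the p65 line and the control before guides still differed with guides. Of the 3699 genes higher at the start, 2499 (67.6%) stayed higher, and of the 3751 lower at the start, 2602 (69.4%) stayed lower. A gene counted as back at the control level was no longer called, and its shift with guides was called in the return direction. The 95% interval of its log2 fold change also had to lie within 0.32 of 0 on either side. The rule did not require a gene to start outside this margin. By this rule 572 genes (15.5%) came back from above and 366 (9.76%) from below. A further 159 (4.3%) and 191 (5.09%) crossed to the other side of the control and were called there. The interval was too wide to decide in 262 and 460 genes, and 207 and 132 lay close to the control without a called return. With guides, 1144 genes were called above the control and 1350 below it that had not been called at the start. Such genes are termed newly higher, newly lower or called with guides only. For them a called shift was not required, so the gained call alone does not show a change with guides. The comparisons share control libraries, so their values are set side by side.

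Most genes that returned had started close to the control. Genes that came back had started at a median log2 fold change of 0.25 if higher and -0.31 if lower, and those that stayed at 0.39 and -0.41. Both medians of the returned genes already lay inside the margin of the return rule. At least as many of these genes therefore started inside it, by their estimate, as outside. For those inside, a return means a called shift within the margin, not a move into it. With a start of at least 1.5-fold required, 49 genes were back. Of 291 genes that had started at least 2-fold higher, 245 stayed, none met the rule for a return and 46 were undecided. Of 567 that had started at least 2-fold lower, 393 stayed, 163 were undecided, 8 crossed and 3 were back. Undecided genes were mostly weak ones, with a median of 5.67 CPM for those from above and 2.94 CPM for those from below. Replicate C of the p65 line with guides was nearest to the no-guide level in 67.6% of the returned genes and in 81.1% of the crossed ones. Without that library, 447 genes crossed in place of 350, and 930 were back in place of 938.

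**Figure D1:**
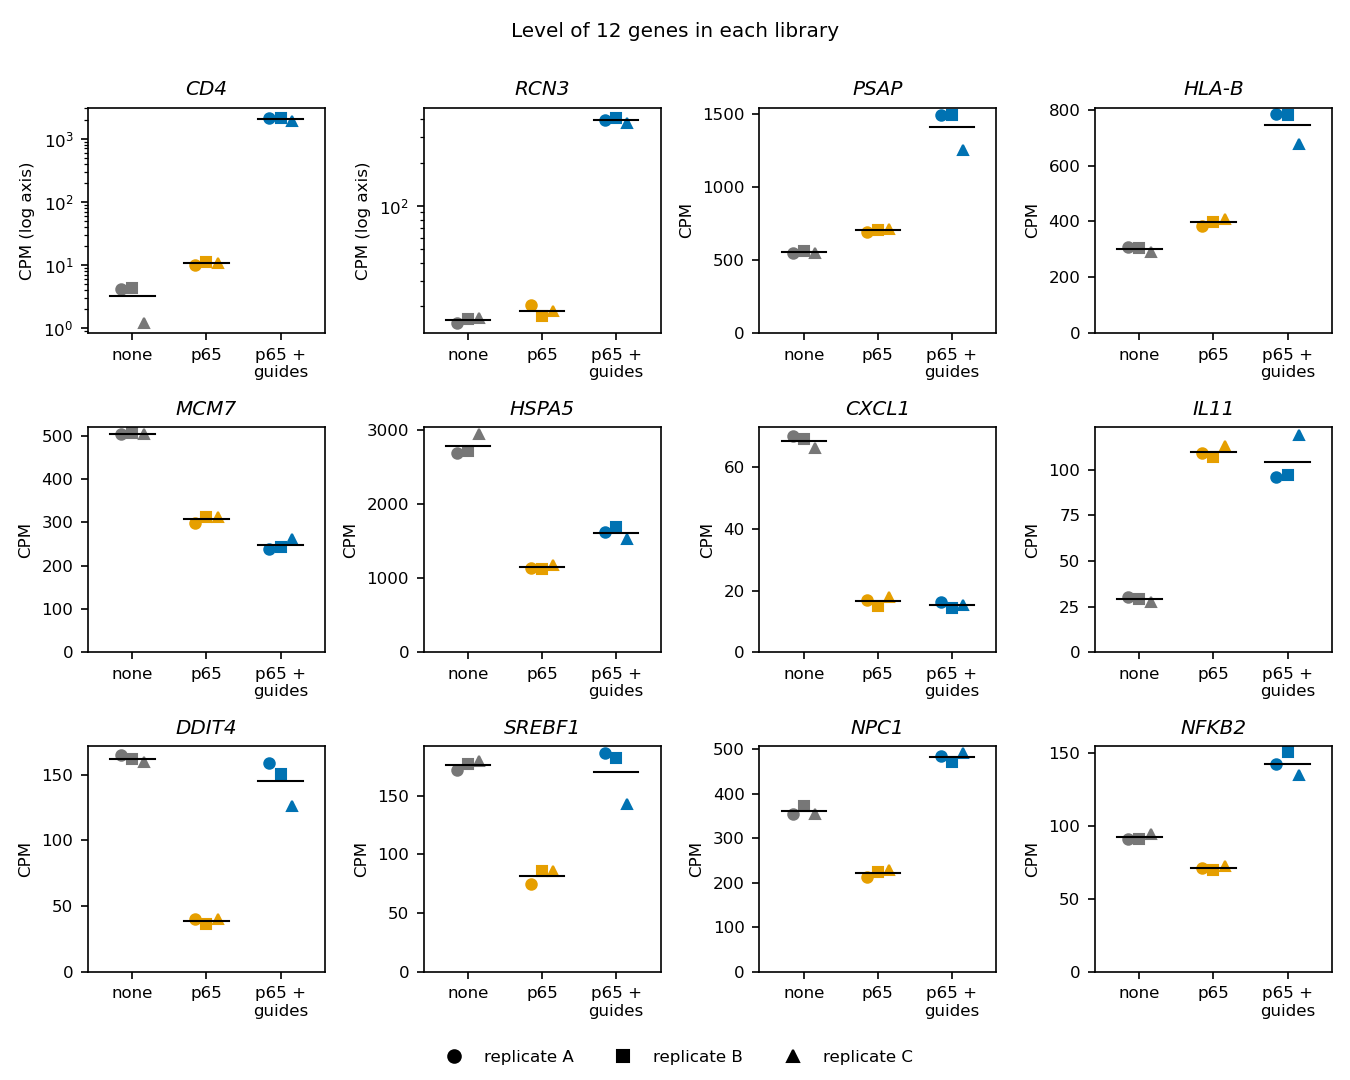
CPM of 12 genes in each library of the control (none), the p65 line without guides (p65) and the p65 line with guides. Symbols are replicates A, B and C, and bars are means. CD4 and RCN3 are on log axes and the others start at 0. DDIT4 and SREBF1 lie near the control with guides, NPC1 and NFKB2 lie above it, and HSPA5 has moved part of the way back.

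Beside CD4, a small group of genes that were nearly silent in the control was strongly expressed with guides. MGAT4C, a glycosyltransferase gene of N-glycan branching (ENSG00000182050.13, chromosome 12, 85955666 to 86838904), had 1241 counts in the 3 libraries with guides and 1 in the control libraries, a ratio of 1390 with a 95% counting interval from 249 to 55000. PIGR, the epithelial transporter of polymeric antibodies (ENSG00000162896.5, chromosome 1, 206928518 to 206946466), had 481 counts against 2 (270, interval 74.3 to 2230). Counts of ESYT3, a lipid-transfer protein of membrane contact sites, were 167 against 2 (93.6, interval 25.5 to 780). In the p65 line without guides, MGAT4C had 9 counts over 3 libraries, PIGR 4 and ESYT3 none. ECRG4 had 120 counts against 1 (135, interval 23.7 to 5360). THEG, a testis gene, had 135 counts against none, which is at least 50.5-fold higher at a floor of 3 counts over the control libraries, and at least 31.8-fold without 1 control library. These genes passed the filter on low counts through lines with guides, where they had to be high.

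RCN3, a calcium-binding protein of the endoplasmic reticulum (ENSG00000142552.7, chromosome 19, 49527618 to 49546962), had a clear level in the control. It was 395, 410.3 and 375 CPM with guides, 15.2, 16.1 and 16.5 CPM in the control and 20.2, 17.1 and 18.3 CPM before guides (log2 fold change 4.62, SE 0.0593, adjusted p = 1.08e-34). The guide line was far above both others, of which the p65 line was slightly the higher (start 0.21, adjusted p = 0.0105). SSUH2 (5.59, SE 0.29), the transcription factor TFCP2L1 (4.48, SE 0.135), the cytokine receptor CRLF2 (4.79, SE 0.601) and the peptide transporter SLC15A2 (4.39, SE 0.446) were also among the 12 largest rises. Libraries with guides that did not overlap the control were a condition for this choice. Of the 14961 genes tested, 8975 did not overlap.

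The largest falls were mostly present before guides and remained. SERPINB7, a serine protease inhibitor, was 7.59, 10.1 and 9.07 CPM with guides, 112, 98.98 and 113 CPM in the control and 14.6, 12.7 and 15.8 CPM before guides (log2 fold change -3.60, SE 0.102, adjusted p = 3.86e-21). Its neighbour in the clade B family SERPINB2 was 2.53, 3.26 and 3.25 CPM with guides, against 27.6, 26.4 and 27.9 CPM in the control and 4.73, 4.73 and 4.31 CPM before guides (log2 fold change -3.17, SE 0.132, adjusted p = 1.57e-20). Both had fallen by most of the distance before guides and fell a little further with them (log2 shift -0.70 and -0.60). The acute-phase gene SAA1 (-3.37), the purine enzyme gene XDH (-2.88), the gap junction gene GJA5 (-3.18), the lncRNA LNCAROD (-3.13), the protease gene ADAMTS6 (-2.75), DENND2A (-2.85), MYO7B (-2.70) and MPP4 (-2.68) were also among the 12 largest falls. FRG2 (-3.31) and the pseudogene MSTO2P (-2.94) belong to families of near-identical copies, so their values are uncertain.

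Genes around CD4 were looked at because guided activators act close to where they bind. PTMS, which starts 21.3 kb before the start of CD4 and encodes parathymosin, was 540.5, 511 and 483 CPM with guides, 225, 243 and 220.5 CPM in the control and 207, 234 and 242 CPM before guides (log2 fold change 1.16, SE 0.0504, adjusted p = 1.22e-16). The guide line lay above both others, which overlapped (shift adjusted p = 4.07e-16). MLF2, at -19.4 kb, had already risen before guides (log2 fold change 0.34) and rose further (0.57, adjusted p = 5.37e-14). LAG3, a T cell inhibitory receptor at -14.3 kb, had fallen before guides (-2.26, adjusted p = 0.000242) and stood at 0.10 with guides, with an interval from -0.68 to 0.88 that leaves a return undecided. It was 1.38, 1.36 and 0.395 CPM with guides and 1.09, 1.01 and 0.783 CPM in the control. ING4 at -123.7 kb was newly higher (0.82, adjusted p = 1.06e-05). The complement protease gene C1S at 201.4 kb was higher before guides (1.60) and higher still with them (2.70, adjusted p = 1.9e-12). On a hand-made list of genes around CD4, which is not complete, 26 neighbours from -252.9 to 322.4 kb were tested, of which 11 were higher and 8 lower, beside 25.6% and 27.5% of all genes.

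**Figure D2:**
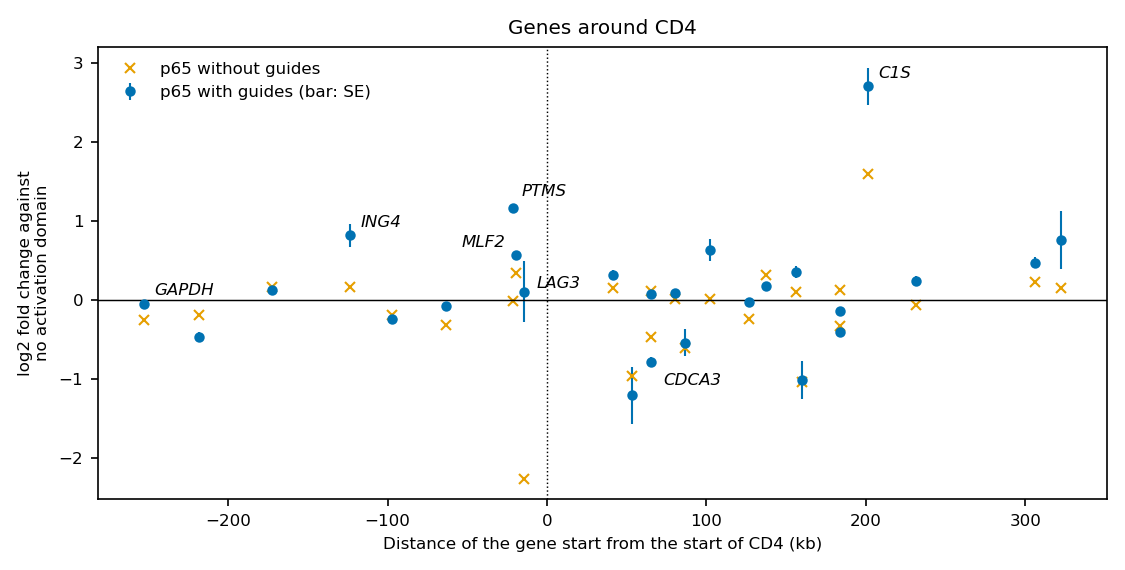
Log2 fold change against the control of the tested genes listed around CD4 by the distance of its start from that of CD4 in kb, with guides (filled points, bars are SE) and without guides (crosses). CD4 itself, at 9.37, is not drawn. PTMS at 1.16 is near 0 without guides, and LAG3 is near 0 with guides and at -2.26 without.

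Antiviral and interferon-stimulated genes rose before guides and rose further with them. These genes are switched on by type I interferon through a complex that holds STAT2 and IRF9, and RELA takes part in inducing interferon itself. Of 36 tested, 28 were higher than the control, 14 of them at least 2-fold, and 1 was lower, with a median log2 fold change of 0.75. Before guides 18 were higher and 3 lower, with a median of 0.20. All 18 stayed higher, and 12 of them rose further with guides. OASL, an antiviral sensor relative, was 15.02, 15.1 and 11.5 CPM with guides, 0.763, 0.724 and 0.522 CPM in the control and 2.901, 2.39 and 2.46 CPM before guides (log2 fold change 4.38, SE 0.23, adjusted p = 1.26e-19). ISG15, a ubiquitin-like modifier, was 24.4, 20.7 and 20.2 CPM with guides, against 4.96, 5.55 and 6.35 CPM in the control and 14.9, 12.4 and 12.6 CPM before guides (log2 fold change 1.94, SE 0.114, adjusted p = 2.31e-16). For both genes the 3 lines were ordered without overlap, with the control lowest. IFI6, a mitochondrial antiviral protein, rose from 19.2, 21.8 and 22.3 to 56.5, 58.6 and 48.97 CPM (log2 fold change 1.37, SE 0.0723, adjusted p = 3.25e-17). SAMD9 (1.504), IFIT2 (2.26), OAS2 (2.26) and the transcription factor IRF9 (1.77) rose in the same way, all 4 partly before guides. OAS1 (1.66), IFIT3 (0.95) and the RNA sensor gene RIGI (0.72) were called with guides only. STAT2 crossed, from a log2 fold change of -0.40 to 0.25 (adjusted p = 0.0214), and so did IFI44, from -0.27 to 1.35. STAT2 was not called higher without replicate B of the guide line (0.15, adjusted p = 0.188), without replicate A of the control (0.25, adjusted p = 0.0504) or without its replicate B (0.20, adjusted p = 0.0951).

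The letters that interferon-activated factors read can be seen in front of many genes of this list. A pattern of the interferon-stimulated response element (TTTC, 2 free bases and TTTC, on either strand) was found in 21 of the 32 list members with a RefSeq promoter (65.6%), against 3.57% of 35116 promoters (GRCh38.p14, 250 bases before to 50 after the start). Its holders did not share a single outcome. OAS3 was lower with guides (-0.26, adjusted p = 6.43e-05 by edgeR), IFI27, MX1, HERC5, BST2 and IFI44L were not called, and the other tested holders were higher. Stretches of 2 of them are shown 5′ to 3′ along the gene, with matches in capitals, as members whose rise is described above. The IFI6 stretch is chr1:27672246-27672378, minus strand, and holds 3 matches. The ISG15 stretch is chr1:1013354-1013429, plus strand, with 2 overlapping matches.
IFI6: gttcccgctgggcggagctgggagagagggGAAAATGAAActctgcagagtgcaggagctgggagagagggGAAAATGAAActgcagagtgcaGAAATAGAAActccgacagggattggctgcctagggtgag
ISG15: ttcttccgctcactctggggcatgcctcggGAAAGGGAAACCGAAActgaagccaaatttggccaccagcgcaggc

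Antigen presentation by MHC class I, which loads peptides cut by the immunoproteasome, followed. Of 21 tested genes, 14 were higher with guides and 1 lower (median 0.40), against 7 higher and 5 lower before guides. HLA-B was 783, 782 and 677 CPM with guides, 308, 303 and 289 CPM in the control and 384, 398 and 409.7 CPM before guides (log2 fold change 1.32, SE 0.046, adjusted p = 1.2e-20). B2M, the invariant light chain, was 709, 698 and 679 CPM with guides, against 412, 412 and 406 CPM in the control and 514, 477 and 493 CPM before guides (log2 fold change 0.76, SE 0.0353, adjusted p = 1.48e-18). Both were already above the control before guides, and the libraries with guides were higher again. The peptide transporter TAP1 rose by 0.69 (adjusted p = 2.3e-14). HLA genes resemble each other, so how reads were shared among them is uncertain.

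MHC class II genes, which CIITA drives, had fallen before guides and were mostly no longer called lower with them. Before guides 14 of 17 tested were lower than the control and none was higher (median -0.43). With guides 4 were higher and 2 lower (median -0.01), beside 25.6% and 27.5% of all genes. Of the 14 that had fallen, 5 were back, 4 were undecided, 3 crossed and 2 stayed lower. CIITA was 74.2, 76.5 and 61.5 CPM with guides, 67.7, 65.3 and 66.5 CPM in the control and 46.98, 53.5 and 47.9 CPM before guides. Its guide and control values overlapped (log2 fold change 0.09, interval -0.11 to 0.28), and its shift with guides was 0.51 (adjusted p = 0.000437). HLA-DPB1 was 95.99, 88.8 and 68.3 CPM with guides, against 87.5, 87.8 and 83.2 CPM in the control and 46.9, 50.6 and 53.3 CPM before guides, also back at the control level (-0.03, interval -0.25 to 0.18). HLA-DRA stayed lower (-0.37, adjusted p = 0.00635), and HLA-DPA1 crossed from -0.25 to 0.20 (adjusted p = 0.000477). Replicate C of the line with guides was the lowest of its 3 libraries in CIITA, HLA-DPB1 and HLA-DRA. Without it, 7 class II genes were higher in place of 4.

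NF-κB's own subunits and feedback genes lay on both sides of the control. Of 27 tested, 9 were higher and 9 lower with guides (median 0.03), which is near the 25.6% and 27.5% of all genes, against 5 higher and 13 lower before guides (median -0.18). NFKB2, which encodes the p100 precursor of the non-canonical arm, was 143, 150.5 and 135 CPM with guides, 90.8, 91.2 and 94.3 CPM in the control and 71.2, 69.95 and 72.8 CPM before guides (log2 fold change 0.63, SE 0.0474, adjusted p = 2.71e-13). TRAF1, an adaptor of TNF receptors, was 28.9, 29.2 and 21.7 CPM with guides, against 14.9, 14.1 and 13.8 CPM in the control and 8.35, 7.802 and 8.096 CPM before guides (log2 fold change 0.90, SE 0.104, adjusted p = 1.16e-08). Both had been below the control before guides and were above it with guides, with no overlap in any pair of lines. MAP3K14, the kinase of the non-canonical arm, crossed as well, from -0.88 to 0.17 (adjusted p = 0.0148, but 0.053 without replicate A of the control and 0.192 with an offset from effective lengths), and RELB was newly higher (0.54, adjusted p = 1.37e-05). NFKBIA, the canonical inhibitor, was back (-0.03, interval -0.19 to 0.14, start -0.31). TNFAIP3, which encodes the inhibitor A20, stayed lower (-0.98, adjusted p = 8.32e-06). BIRC2 crossed downward, from 0.24 to -0.54, and the deubiquitinase gene CYLD stayed higher (0.83 and 0.80). A loose κB pattern (GGG, 5 free bases and CC, on either strand) was in all 24 of these genes with a promoter and in 18 of 24 genes of secreted factors (75.0%), but also in 58.7% of all promoters.

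Chemokines of neutrophil recruitment stayed low. Of 24 tested secreted inflammatory factors, 7 were higher and 7 lower with guides, near the 25.6% and 27.5% of all genes. Before guides 4 were higher and 13 lower. Of the 13, 7 stayed lower. CXCL1 was 16.2, 14.3 and 15.4 CPM with guides, 70.1, 68.8 and 66.1 CPM in the control and 16.8, 15.1 and 17.9 CPM before guides (log2 fold change -2.16, SE 0.0737, adjusted p = 2.72e-22). CXCL8 was 83.95, 83.2 and 101 CPM with guides, against 222, 240.4 and 228 CPM in the control and 65.6, 83.4 and 88.1 CPM before guides (log2 fold change -1.36, SE 0.112, adjusted p = 1.02e-06). The lines with p65 lay far below the control in every library, and the shift with guides was not called for either gene. CXCL2 (-1.75), CXCL3 (-1.62), IL1B (-1.10) and IL6 (-1.05) were also called lower. IL24 recovered part of its fall, from -1.23 to -0.56 (shift adjusted p = 3.02e-13). In the other direction, IL11, a cytokine of the IL-6 family, stayed higher, at 96.2, 96.95 and 119 CPM with guides, 30.4, 29.3 and 27.8 CPM in the control and 109, 107 and 113 CPM before guides (log2 fold change 1.84, SE 0.076, adjusted p = 1.82e-14). CCL5 crossed from -0.81 to 0.95 (adjusted p = 0.000269), and the adhesion gene ICAM1 was called higher with guides only (1.02, adjusted p = 1.59e-07).

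**Figure D3:**
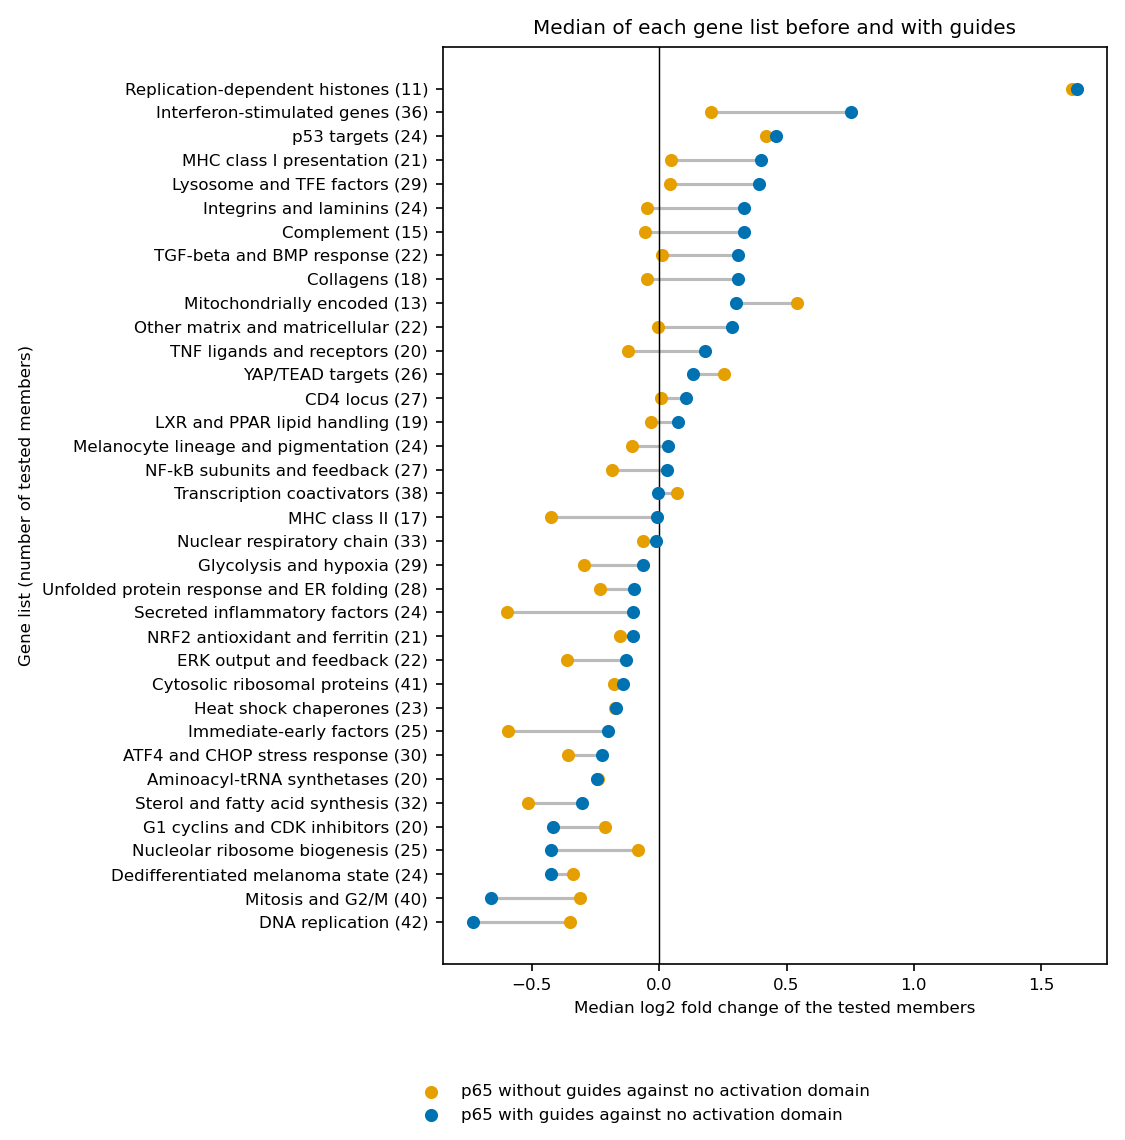
Median log2 fold change against the control of the tested members of each gene list with at least 10 tested members, before guides (orange) and with guides (blue). Cell-cycle and nucleolar genes lie further below 0 with guides, interferon and lysosomal genes further above, MHC class II genes move from -0.43 to -0.01, and histones stay at 1.62 and 1.64.

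The unfolded protein response, by which stress in the endoplasmic reticulum induces chaperones, was partly restored. Before guides 17 of 28 genes tested were lower than the control and 3 higher. With guides 11 were lower and 9 higher. All 11 had been lower before, and 10 genes of the list that stayed changed were closer to the control with guides. HSPA5, which encodes the chaperone BiP, was 1625, 1688 and 1527 CPM with guides, 2691, 2725 and 2952 CPM in the control and 1141, 1128 and 1181 CPM before guides (log2 fold change -0.79, SE 0.0378, adjusted p = 3.37e-18). HERPUD1, a degradation factor of the endoplasmic reticulum, was 64.8, 64.5 and 57.5 CPM with guides, against 121, 119 and 135 CPM in the control and 38.2, 35.9 and 39.9 CPM before guides (log2 fold change -1.01, SE 0.0562, adjusted p = 1.53e-16). In both, the level was higher with guides than before (shift 0.49 and 0.71) and every library with guides remained under every control library. HSP90B1 (-0.42), HYOU1 (-0.50) and MANF (-0.38) did the same. The transcription factor gene XBP1 came back, at 38.4, 36.7 and 39.7 CPM with guides, 38.3, 36.4 and 39.3 CPM in the control and 28.6, 29.1 and 27.8 CPM before guides (interval -0.12 to 0.14). CALR, which encodes calreticulin, was also back (interval -0.04 to 0.09), and DNAJB9 crossed from -0.51 to 0.25 (adjusted p = 0.00391, but 0.206 with an offset from effective lengths).

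The endoplasmic reticulum stress element, CCAAT, 9 free bases and CCACG on either strand, was found in 6 of the 25 genes of this list with a promoter (24.0%), against 0.0769% of all promoters. Its holders did not share a single outcome: HSPA5, HSP90B1, CRELD2 and CANX stayed lower, and XBP1 and CALR were back. The stretches of 4 of them are shown, a pair from each outcome, with the element in capitals. They are HSPA5 (chr9:125241361-125241439, minus strand), HSP90B1 (chr12:103930186-103930369, plus strand, 2 matches), XBP1 (chr22:28800573-28800651, minus strand) and CALR (chr19:12938359-12938432, plus strand).
HSPA5: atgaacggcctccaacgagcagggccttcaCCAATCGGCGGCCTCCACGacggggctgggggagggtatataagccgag
HSP90B1: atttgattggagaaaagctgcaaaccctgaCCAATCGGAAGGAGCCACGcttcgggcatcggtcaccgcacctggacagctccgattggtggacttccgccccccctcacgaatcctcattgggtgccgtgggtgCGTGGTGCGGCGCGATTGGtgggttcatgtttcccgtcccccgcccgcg
XBP1: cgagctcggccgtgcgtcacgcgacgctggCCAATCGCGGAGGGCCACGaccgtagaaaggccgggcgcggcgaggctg
CALR: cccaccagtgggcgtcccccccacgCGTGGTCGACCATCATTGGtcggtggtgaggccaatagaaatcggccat

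The branch of the stress response that runs through ATF4 and DDIT3 (CHOP) stayed low. Of 30 tested genes, 17 were lower and 5 higher with guides (median -0.22), against 20 and 4 before guides. DDIT3 was 16.7, 14.9 and 14.9 CPM with guides, 54.3, 48.6 and 61.5 CPM in the control and 10.7, 11.7 and 11.8 CPM before guides (log2 fold change -1.82, SE 0.0846, adjusted p = 9.7e-19). ATF4 itself was 113, 106 and 103 CPM with guides, against 215, 201 and 211 CPM in the control and 115, 114 and 112 CPM before guides (log2 fold change -0.95, SE 0.0412, adjusted p = 1.94e-19), with no called shift. The asparagine synthetase gene ASNS (-0.88) and TRIB3 (-1.04) stayed lower too. The aminoacyl-tRNA synthetases charge tRNAs for protein synthesis, and many are ATF4 targets. All 19 members called before guides stayed on the same side, 18 lower and 1 higher, while 4 of 20 tested shifted up with guides and 6 down. AARS1 was 173, 169 and 173 CPM with guides, against 272, 283 and 264 CPM in the control and 160.3, 158 and 165 CPM before guides (log2 fold change -0.67, SE 0.0371, adjusted p = 1.33e-16). Against this, DDIT4, an inhibitor of mTORC1, was the returned gene with the largest starting change. It was 159, 151 and 126 CPM with guides, 165, 162 and 159 CPM in the control and 40.2, 36.1 and 40.3 CPM before guides (full -0.16, interval -0.30 to -0.01, start -2.06). Replicate A with guides was level with the lowest control library and the other two were below it. DDIT4 was called lower without replicate A of the guide line (log2 fold change -0.23, adjusted p = 0.00538), without a low-count filter (-0.14, adjusted p = 0.0101) and with a replicate block (-0.16, adjusted p = 0.0119). The stress cytokine GDF15 was back as well (0.05, start -0.92), and was called higher without replicate C of the guide line (0.17, adjusted p = 0.0487). A CARE-like pattern, TGATGNAA on either strand, was in 6 of 28 promoters of this list (21.4%, against 3.62% of all), and the CRE core TGACGT in 2 (7.14%, against 7.96%).

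Lipid genes under SREBP control were mixed. SREBP factors raise cholesterol uptake and synthesis when membranes are short of sterol, and INSIG1 holds them back. Of 32 tested genes, 20 were lower and 6 higher with guides (median -0.30), against 25 and 4 before guides. INSIG1 was 43.7, 39.4 and 32.7 CPM with guides, 142, 146 and 157 CPM in the control and 17.5, 17.4 and 19.2 CPM before guides (log2 fold change -1.95, SE 0.0771, adjusted p = 1.77e-15). SCD, the desaturase, was 322, 323 and 249.5 CPM with guides, against 527, 524 and 539.7 CPM in the control and 94.9, 97.9 and 102 CPM before guides (log2 fold change -0.83, SE 0.0905, adjusted p = 9.45e-06). Both had recovered part of their loss and remained low in every library. The enzymes FDPS (-0.58, shift -0.01) and MVK (-0.58, shift 0.02) had no called shift. SREBF1, the gene of the lipogenic SREBP, was back, at 186, 182 and 143 CPM with guides, 172, 177 and 179.9 CPM in the control and 74.6, 85.9 and 85.5 CPM before guides (interval -0.30 to 0.20). Lipid-handling genes of LXR and PPAR formed a separate list. Of 19 tested, 8 were higher and 5 lower with guides (median 0.07), beside 25.6% and 27.5% of all genes. Before guides 4 were higher and 4 lower. The cholesterol exporters ABCA1 (0.76) and ABCG1 (2.12) were called higher with guides only. ANGPTL4, an inhibitor of lipoprotein lipase, lost part of its rise, from 2.90 to 1.43.

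Lysosomal genes rose together with guides. Of 29 tested, 23 were higher and none lower by edgeR (median 0.39), against 13 higher and 7 lower before guides (median 0.04). PSAP, the precursor of the saposins, was 1492, 1498 and 1256 CPM with guides, 552, 560.3 and 552 CPM in the control and 692, 704 and 714 CPM before guides (log2 fold change 1.35, SE 0.0481, adjusted p = 1.7e-17). GRN, which encodes progranulin, was 529, 509.8 and 445 CPM with guides, against 194, 196 and 194 CPM in the control and 320.1, 325 and 347 CPM before guides (log2 fold change 1.34, SE 0.0486, adjusted p = 1.51e-19). The 3 lines were again ordered without overlap. Of the 13 already higher, 12 stayed and 10 of these rose further, 5 of the 7 lower ones crossed, and 6 genes were called higher with guides only. NPC1, the cholesterol exporter of the lysosome, crossed from -0.70 to 0.42 (adjusted p = 2.16e-11), as did the autophagy receptor gene SQSTM1, from -0.46 to 0.26. CTSA, the protective protein cathepsin A, was 182, 168 and 160.5 CPM with guides, 106, 109.7 and 111 CPM in the control and 107, 113 and 117 CPM before guides (log2 fold change 0.64, SE 0.0467, adjusted p = 1.21e-13). The E-box CACGTG, which forms the core of the element read by TFEB, was in 7 of 19 promoters of this list (36.8%), against 7.26% of all. CTSA holds a pair of them in its stretch chr20:45891263-45891334, plus strand, shown as a member called with guides only.
CTSA: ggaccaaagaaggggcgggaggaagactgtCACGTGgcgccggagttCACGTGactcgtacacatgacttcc

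Cell-cycle genes were lower before guides and lower still with them. All 42 tested genes of DNA replication were below the control (median -0.73), as were 36 before guides (median -0.35). Those 36 all stayed lower, and 33 of them fell further with guides. MCM7, a subunit of the replicative helicase, was 239, 244 and 262 CPM with guides, 503, 506 and 504 CPM in the control and 298, 313 and 312 CPM before guides (log2 fold change -1.02, SE 0.0391, adjusted p = 9.71e-21). UHRF1, which guides maintenance DNA methylation, was 151, 156 and 159.9 CPM with guides, against 318, 319 and 310.4 CPM in the control and 224, 244 and 241 CPM before guides (log2 fold change -1.02, SE 0.0396, adjusted p = 1.29e-20). Of 40 mitotic genes, 39 were lower with guides and none higher (median -0.66), against 32 before guides. CDC20, the activator of the anaphase-promoting complex, was 157, 161 and 169 CPM with guides, against 308, 320.0 and 305 CPM in the control and 199, 209.6 and 206 CPM before guides (log2 fold change -0.94, SE 0.0384, adjusted p = 5.06e-20). The control was highest and the line with guides lowest in every library of these 3 genes. In the VP64 line with guides, 42 replication and 39 mitotic genes were also below the same control, and the median log2 difference of p65 minus VP64, both with guides, was -0.01 for the replication and -0.03 for the mitotic list.

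Most p53 targets stayed higher. Of 24 tested, 17 were higher and 4 lower with guides (median 0.46), against 17 and 3 before guides. CDKN1A, which encodes the inhibitor p21, was 815, 810.2 and 715 CPM with guides, 463, 449 and 458 CPM in the control and 602, 623 and 623 CPM before guides (log2 fold change 0.77, SE 0.0426, adjusted p = 1.65e-16). The death receptor gene TNFRSF10B was also higher (0.99, adjusted p = 1.29e-20), and MDM2 lost part of its rise, from 0.81 to 0.57. Of 11 replication-dependent histone genes, 8 were higher and 1 lower with guides (median 1.64), against 9 and 1 before guides (median 1.62). H1-2 was 11.99, 10.01 and 9.67 CPM with guides, 3.16, 2.704 and 2.61 CPM in the control and 8.195, 8.95 and 8.89 CPM before guides (log2 fold change 1.91, SE 0.159, adjusted p = 1.68e-12). Of the 8, the shift with guides was called in H2AC6 alone (0.37, adjusted p = 0.00314). Histone genes are multicopy and their counts are uncertain.

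Genes of ribosome assembly fell with guides, and those of the ribosome itself had fallen before. Of 25 nucleolar genes, 22 were lower and 1 higher with guides (median -0.42), against 11 lower and 7 higher before guides (median -0.08). Of those 7, 4 crossed. NPM1, a nucleolar chaperone, was 1499, 1547 and 1744 CPM with guides, 2282, 2365 and 2329 CPM in the control and 1905, 1849 and 1913 CPM before guides (log2 fold change -0.54, SE 0.0407, adjusted p = 1.23e-12). Of 41 cytosolic ribosomal protein genes, 26 were lower and none higher with guides by edgeR (median -0.14), and 25 of them had been lower before. MYC, which drives ribosome assembly, stayed lower with no called shift (-0.59 before and -0.56 with guides).

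ERK output genes moved part of the way to the control. Of 22 tested genes of ERK output and its feedback, 12 were lower and 8 higher with guides, against 14 and 6 before guides, and 11 of the 18 that stayed changed were closer to the control. DUSP6, a phosphatase of ERK, was 168, 159 and 137 CPM with guides, 202, 196 and 182 CPM in the control and 105, 109 and 106 CPM before guides (log2 fold change -0.32, SE 0.0543, adjusted p = 1.41e-05). SPRY2 went from -0.79 to -0.19 (adjusted p = 0.00246, but 0.0528 without replicate C of the guide line). Among 25 immediate-early genes, 18 were lower before guides and 10 with them. Of the 18, 7 stayed lower, 8 were undecided, 2 were back and 1 was close, and 3 other genes were newly lower. NR4A1 was back (0.03, interval -0.18 to 0.23, start -0.95), and KLF4 stayed lower (-1.86, adjusted p = 2.76e-15). FOS was 101, 82.8 and 44.9 CPM with guides, 229.7, 188 and 101 CPM in the control and 35.3, 20.8 and 9.64 CPM before guides. In each line its replicate A was highest and its replicate C lowest, and a return was undecided (interval -2.31 to -0.05, adjusted p = 0.0752). FOS was called lower with a replicate block (-1.18, adjusted p = 8.61e-05), by DESeq2 (-1.16, adjusted p = 0.0478) and without replicate C of the control (-1.44, adjusted p = 0.0467). Of 26 YAP/TEAD genes, 14 were higher and 8 lower with guides, beside 25.6% and 27.5% of all genes. CCN2 was back (0.05, start 0.60), and WWTR1, which encodes TAZ, crossed from -0.83 to 0.44 (adjusted p = 1.31e-05).

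**Figure D4:**
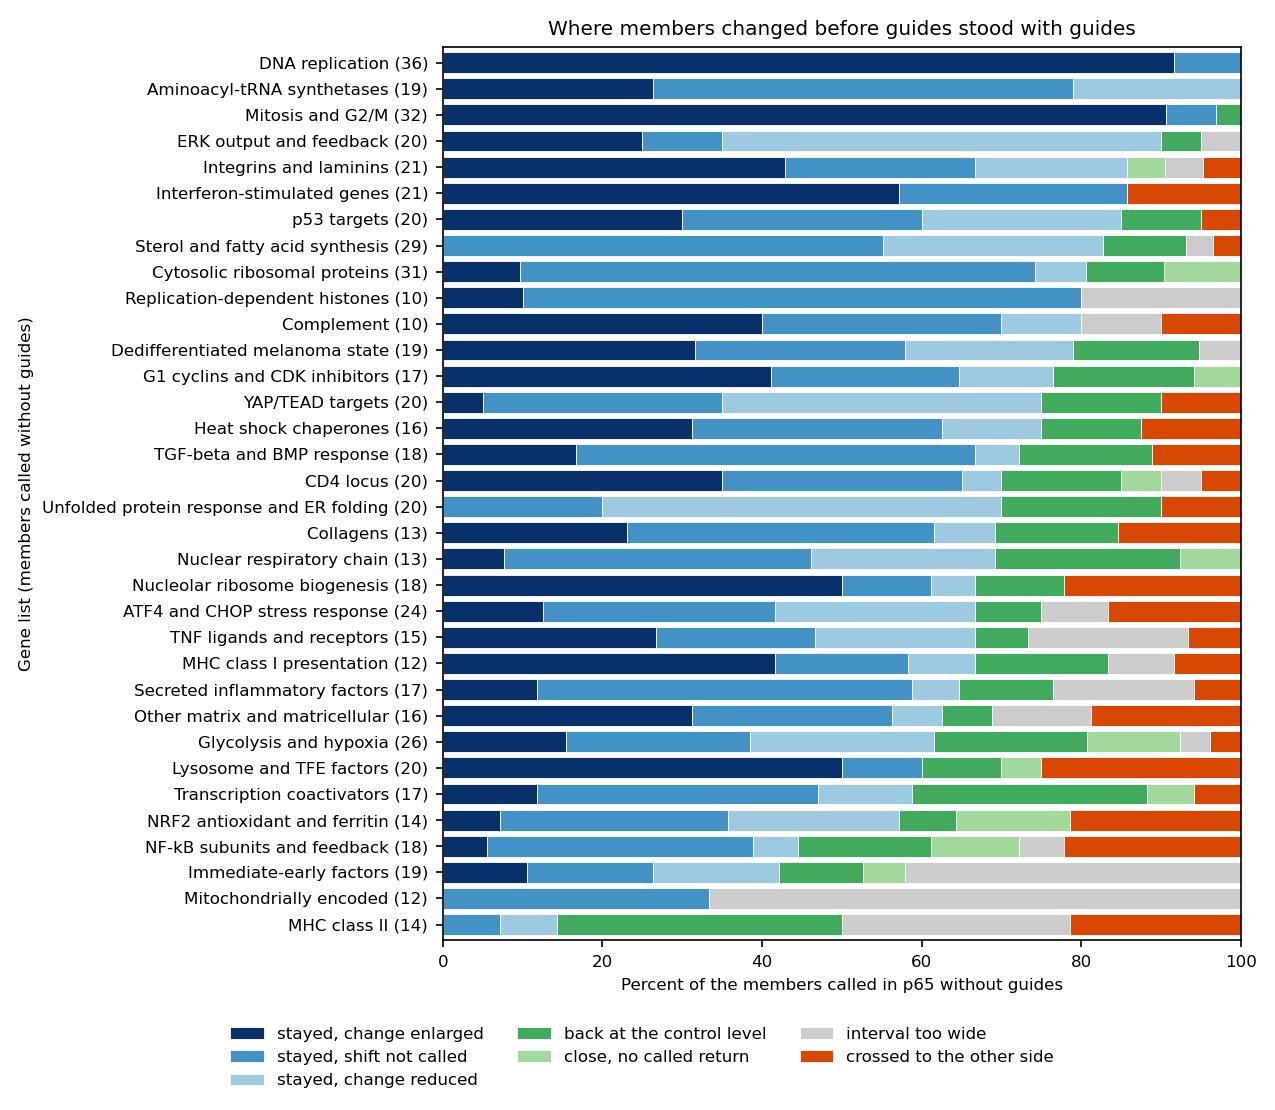
Share of each list's members called before guides that stayed changed (blues), came back or lay close (greens), were undecided (grey) or crossed (orange). Dark to light blue marks a change larger with guides, without a called shift, or smaller with guides. Lists with at least 10 such members are drawn, with their number in brackets. DNA replication and aminoacyl-tRNA synthetase genes all stayed, and MHC class II genes have the lowest share that stayed.

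Glycolytic and hypoxia genes also moved toward the control. Of 29 tested, 22 were lower before guides and 13 with them, 5 of the 22 were back, and the median went from -0.30 to -0.06. The glucose transporter gene SLC2A1 was 728, 732 and 709 CPM with guides, 765, 759 and 737 CPM in the control and 566, 625 and 625 CPM before guides, and was back by the rule (interval -0.15 to 0.03), although each library with guides was just below each control library. GAPDH was back too (-0.05, start -0.26). LDHA was not: it was 1579, 1638 and 1725 CPM with guides, against 2321, 2314 and 2330 CPM in the control and 1628, 1659 and 1663 CPM before guides (log2 fold change -0.50, SE 0.035, adjusted p = 5.95e-14), with no called shift. VEGFA kept a small part of its fall (-0.83 before and -0.17 with guides). Among 13 mitochondrially encoded genes, 12 were higher before guides and 4 with them, and 8 were undecided. MT-CYB was 1783, 1513 and 1313 CPM with guides and 1121, 1027 and 836 CPM in the control (log2 fold change 0.63, SE 0.153, adjusted p = 0.00514), so the spread between libraries was wide. The number called was 7 by DESeq2 and between 2 and 8 when a library was left out (8 without replicate B of the control, and 2 without replicate A of the guide line or without replicate A or C of the control).

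Genes of transcription coactivators lay on both sides of the control with guides. Of 38 tested, 15 were higher and 2 lower before guides, and 9 higher and 11 lower with guides, near the 25.6% and 27.5% of all genes. Of the 15, 8 stayed higher and 5 were back, and 8 other members were newly lower. Over all genes higher at the start, 15.5% were back. KMT2A was 64.97, 63.1 and 69.3 CPM with guides, 68.1, 69.5 and 59.97 CPM in the control and 101, 89.98 and 86.4 CPM before guides (0.00, interval -0.17 to 0.18). ARID1A and MED1 were back as well (0.10 and -0.07), although ARID1A was called higher without a low-count filter (0.12, adjusted p = 0.0493). KMT2D met the rule for a return (0.16, start 0.80, adjusted p = 0.0595), but was called higher under 7 of the 13 other settings, among them without replicate A of the control (0.22, adjusted p = 0.023) and without its replicate B (0.21, adjusted p = 0.0366). With the effective-length offset it was below the control and not called (-0.25, adjusted p = 0.334). CREBBP, a histone acetyltransferase, stayed higher at a reduced size (0.73 and 0.30). EP300, its paralogue, was newly lower (-0.37, adjusted p = 0.0077), but not without replicate B of the guide line (-0.31, adjusted p = 0.0525), without replicate B of the control (-0.23, adjusted p = 0.132) or with the offset from effective lengths (-0.47, adjusted p = 0.308). The number lower was 5 with an offset from effective lengths, 6 without replicate B of the guide line, and 7 without replicate B or C of the control.

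Of 24 melanocyte genes, 4 were higher and 4 lower with guides, beside 25.6% and 27.5% of all genes, against 2 and 6 before guides. MITF, the master factor, was 13.04, 10.4 and 10.4 CPM with guides, 13.9, 13.4 and 11.4 CPM in the control and 9.88, 12.4 and 10.7 CPM before guides, with overlapping groups (-0.19, interval -0.43 to 0.05, adjusted p = 0.181). S100B was 66.1, 57.98 and 41.6 CPM with guides, against 17.7, 16.3 and 15.4 CPM in the control and 18.4, 20.6 and 18.9 CPM before guides (log2 fold change 1.75, SE 0.165, adjusted p = 2.58e-06), higher in each library with guides. NGFR, a receptor of neural crest-like melanoma cells, had lost most of its expression before guides and stayed low. It was 125, 124 and 95.6 CPM with guides, 646, 633 and 637 CPM in the control and 58.2, 69.5 and 71.01 CPM before guides (log2 fold change -2.48, SE 0.105, adjusted p = 3.45e-09). Of 24 genes of the dedifferentiated state, 15 were lower and 4 higher with guides. SPARC, a matrix protein gene, crossed from -0.16 to 0.87 (adjusted p = 1.94e-19), and COL1A1 rose to 19.8, 16.6 and 16.7 CPM from 4.58, 5.84 and 4.44 CPM (log2 fold change 1.84, SE 0.143, adjusted p = 6.93e-13). Markers of fibroblasts and endothelium summed to 101 to 112 TPM with guides and 48.7 to 58.6 TPM in the control. Most of that was ACTA2 (1.08). Of 6 such markers tested, 2 were higher and 2 lower with guides, beside 25.6% and 27.5% of all genes. Apart from ACTA2, the highest was LUM at 2.45 TPM in any library, and PDGFRA and COL3A1 stayed under 1 TPM. The part of such cells in the results was not tested. Epithelial markers summed to 62.9 to 73.2 and 62.3 to 69.9 TPM, and myeloid markers to 122 to 135 and 121 to 144 TPM. Of 9 myeloid markers tested, CD68 was higher (1.05, adjusted p = 4.36e-17) and 5 were lower, all at least 2-fold, among them SPI1 (-1.59, adjusted p = 6.18e-09) and TYROBP (-1.34, adjusted p = 2.23e-05).

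The p65 and VP64 lines with guides differed in fewer genes than either did from the control, which they share. Of all genes tested, 586 were higher with p65 (3.92%) and 647 lower (4.32%). PTMS beside CD4 was 1076, 1067 and 1025 CPM with VP64, above the 540.5, 511 and 483 CPM with p65 (log2 difference -1.05, SE 0.0497, adjusted p = 3.48e-14), whereas CD4 was 1927, 1942 and 1816 CPM with VP64 (log2 difference 0.12, SE 0.14, adjusted p = 0.71). Of the interferon list 3 genes were higher and 3 lower with p65. Against the control, the VP64 line with guides had 28 interferon genes higher and 1 lower (median 0.86). For MHC class I these counts were 16 and 1 (median 0.40), and for lysosomal genes 23 and 0 (median 0.44). Of 25 nucleolar genes 10 were higher with p65 than with VP64 and none lower (edgeR). Of 25 immediate-early genes 8 were lower with p65 and 1 higher, and of 29 glycolytic genes 9 were lower and none higher (edgeR).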

How the data were processed

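RNA from 15 libraries (5 lines of 3 replicates) was sequenced, and each library has a gene table. Per the file headers, the tables deposited by the authors hold expected counts, TPM and effective lengths for 58813 entries, of which 92 are spike-ins that were left out. The submitters' processing notes name STAR, RSEM and hg38. Settings, versions and strand use are not given here, so overlapping and antisense genes are uncertain.

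Expected counts were rounded and analysed with edgeR 4.0.16 in R 4.3.3 (filterByExpr with a minimum count of 10, TMM scaling, robust quasi-likelihood test, 1 coefficient per line, all 15 libraries in a single fit). Adjusted p-values are Benjamini-Hochberg over 14961 genes. CPM values use TMM-scaled library sizes. SE and 95% intervals are Wald values from the fit. The CD4 permutation test is exact and 2-sided. Counting intervals and floors cover counting error only.

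Alternatives were DESeq2 1.42.0 size factors and its Wald test, other low-count filters, a replicate block, an offset from effective lengths, only the libraries compared, other margins and each library left out. The script was tested on simulated data. Members and gene lists were chosen with earlier results of these data known. Genes named are CD4, RELA, the 12 largest changes per direction, the 5 of smallest p per list, 6 per direction and outcome, and 5 per direction between p65 and VP64. A further 60 were chosen after their values were seen. Promoter sequences are from RefSeq (GRCh38.p14). Some genes that the rule names are not reported here.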

Additional observations from a re-analysis of the deposited data

Results flagged for a closer look

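The difference between the p65 and VP64 lines, both with guides, was tested directly by edgeR, and the 5 largest called differences in each direction are given here as log2 values of p65 minus VP64. Higher with p65 were MGAT4C at 4.687 (SE 0.228), ECRG4 at 4.658 (SE 0.821), SLC15A2 at 4.47 (SE 0.489), PIGR at 3.861 (SE 0.294) and ESYT3 at 3.316 (SE 0.475). None of these 5 had more than 22 counts in a VP64 library, so they passed the filter on low counts largely by being high with p65, and their differences are a description with no p. All 5 are also among the 12 largest rises over the control. MGAT4C was 0.709, 1.14 and 0.695 CPM in the VP64 libraries and 23.4, 21.5 and 22.3 CPM in the p65 libraries, and PIGR was 0.709, 0.6196 and 0.442 CPM with VP64 and 9.79, 7.76 and 8.48 CPM with p65. Lower with p65 were SLCO4A1-AS1 at -1.765 (adjusted p = 0.00042), CDH19 at -1.397 (adjusted p = 4.36e-06), GASK1B at -1.396 (adjusted p = 9.55e-05), MEGF10 at -1.384 (adjusted p = 0.00378) and CD96 at -1.314 (adjusted p = 0.00151). SLCO4A1-AS1 is an antisense gene, whose reads cannot be told from those of its partner where strand is not known.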

How the results depend on the processing

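Alternatives were run for the p65 line with guides against the control and for the outcome counts, not for single genes in the other comparisons. No named gene called in that comparison changed direction, and the direction of other genes was not followed. The number of genes at least 2-fold lower was 304 with a filter at a mean of 1 CPM. Mitochondrially encoded genes called higher numbered 7 by the DESeq2 Wald test and 2 to 8 when a library was left out, coactivators called lower 6 to 9, and MHC class II genes called higher 3 to 7. With the effective-length offset, 4 nuclear respiratory chain genes and 1 fibroblast or endothelial marker were higher, 5 coactivators were lower, 523 genes were back and 160 had crossed. A margin of 0.2 gave 602 back, 136 close and 1261 undecided, and a start of at least 1.5-fold gave 1535 stayed, 49 back, 0 close, 446 undecided and 41 crossed. Leaving out a library gave 3574 to 3771 genes higher and 3556 to 3958 lower. Over all genes tested, the replicate letters did not pair the libraries (correlations of same-lettered deviations between p65 with guides and the control were -0.0666, -0.0847 and -0.0101). Single genes could still follow the letters, as FOS did in each line. With a replicate block 12 immediate-early genes were lower in place of 10. With a replicate block 3794 genes were higher and 4051 lower, 5013 stayed, 928 were back and 327 crossed. Of 302 named genes that could be run under all 13 other settings, 269 kept their call. Many of them were chosen by their small p or large change in this same comparison. The share therefore does not measure how stable calls are over all genes. At this depth 722 genes were undecided, with a median of 5.67 CPM for those from above and 2.94 CPM for those from below. The cause was not tested.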
